A study of Homo sapiens with 2 samples.

Results

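The MHC class I antigen presentation genes described here are HLA-B, HLA-C, HLA-E, HLA-F, B2M, TAP1, TAP2, TAPBP and NLRC5. They were taken by symbol from the deposited tables, where all 9 were found among 51640 gene symbols, in 10 rows that all carry the status OK in both libraries. RNA sequencing was done on 2 libraries, named PJ and PF, of HCT116, an epithelial cell line from a human colon cancer grown in DMEM with serum and antibiotics. Both libraries belong to a single group, with no treatment or genetic change in the labels, that the submitters call biological replicates; the labels do not say what the letters stand for or which cultures they came from. Each value is an FPKM, a count of fragments normalised to transcript length and library size, with the 95% bounds that the authors' software gave for it. With 1 library on each side, a difference between PJ and PF has no replicate check, and no p-value was computed. The number of fragments behind the libraries is unknown, so the deposited bounds, which cover the estimate within a library and not the spread between cultures, were the only measure of precision.

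MHC class I molecules show fragments of a cell's own proteins at its surface, where CD8+ T cells inspect them. A polymorphic heavy chain pairs with the invariant light chain beta-2-microglobulin in the endoplasmic reticulum. The TAP transporter brings in peptides made by the proteasome, and tapasin holds empty class I molecules next to TAP until a peptide is bound. NLRC5 works in the nucleus with the RFX proteins on a shared promoter module of these genes, and interferon raises much of the pathway. Loss of such genes is a known route by which colon cancers escape T cells.

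The promoters are shown because the heavy chain genes and B2M are known to share this module. Its part in the library ratios was not tested. RefSeq windows (GRCh38.p14) were found for 7 of the 9 members, HLA-B, HLA-C, HLA-F, B2M, TAP1, TAP2 and TAPBP, of which TAP1 had 2 starts; each covers 250 bases before and 50 after a start. Of HLA-B (chr6:31357189-31357429, minus strand), HLA-C (chr6:31272131-31272342, minus strand) and B2M (chr15:44711267-44711486, plus strand) the bases ahead of the first annotated exon are printed 5′ to 3′. Capitals mark matches, on either strand, to the CRE core TGACG, the Y box ATTGG, the interferon element cores GAAANNGAA and GAANNGAA, and GGGATTC, an arm of the enhancer A site.
HLA-B: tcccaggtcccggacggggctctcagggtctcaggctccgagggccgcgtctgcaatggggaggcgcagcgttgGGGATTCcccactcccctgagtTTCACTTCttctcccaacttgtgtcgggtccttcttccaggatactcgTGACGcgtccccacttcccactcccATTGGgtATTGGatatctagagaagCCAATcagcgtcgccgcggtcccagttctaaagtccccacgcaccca
HLA-C: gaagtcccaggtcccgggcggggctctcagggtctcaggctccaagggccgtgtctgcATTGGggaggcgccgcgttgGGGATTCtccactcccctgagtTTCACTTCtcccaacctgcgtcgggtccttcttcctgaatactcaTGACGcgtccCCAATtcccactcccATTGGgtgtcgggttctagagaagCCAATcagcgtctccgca
B2M: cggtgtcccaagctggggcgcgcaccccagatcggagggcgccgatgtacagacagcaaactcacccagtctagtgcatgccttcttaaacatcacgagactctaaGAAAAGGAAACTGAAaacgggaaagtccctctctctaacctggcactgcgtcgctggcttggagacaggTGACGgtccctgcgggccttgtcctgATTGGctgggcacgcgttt

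In HLA-B and HLA-C the GGGATTC, GAANNGAA and TGACG matches followed each other in that order towards the start, with Y boxes after them, the nearest at -56 to -52 from the start in both genes. HLA-C had a further Y box ahead of GGGATTC. B2M had overlapping GAAANNGAA matches at -144 to -136 and -138 to -130, TGACG at -75 to -71 and ATTGG at -49 to -45. TGACG was found in 4 of the 7 genes (B2M, HLA-B, HLA-C and TAP2) and in 24.6% of all 35116 promoter windows. ATTGG was found in 5 of 7, the 3 heavy chain genes with a window, B2M and TAP1, and in 34.6% of all windows. GAAANNGAA was present in B2M, HLA-F, TAP1, TAP2 and TAPBP and in 8.11% of all windows. GGGANTTCC, a kappa B core, matched TAPBP alone among the 7 and 1.85% of all windows, and TTCNNNGAA, the interferon gamma element GAS, matched TAP1 alone and 7.66%. GAANNGAA (HLA-B, HLA-C and TAP2; 19.0% of all windows) and GGGATTC (HLA-B and HLA-C; 3.33%) were added after the promoter sequences were seen. These are letter matches in the reference genome and not measured binding sites.

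**Figure D1:**
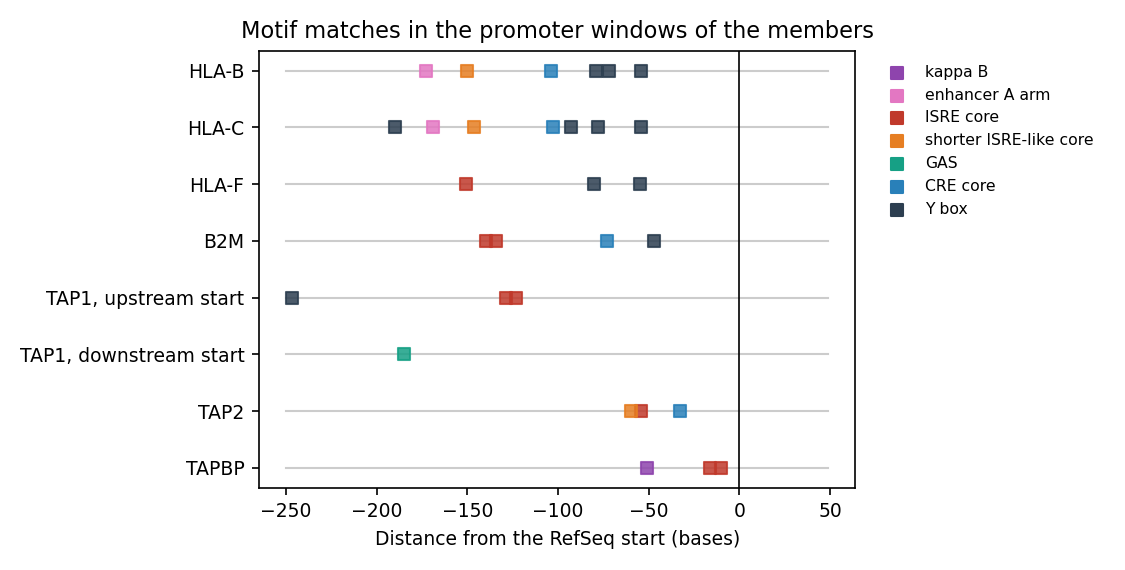
Matches to 7 motifs (coloured squares) in the promoter windows of the members, by distance in bases from the RefSeq start (vertical line); grey lines are the windows, from 250 bases before to 50 after a start. The CRE core lies ahead of the Y box nearest to the start in HLA-B, HLA-C and B2M, and the TAP2 and TAPBP windows hold no Y box and the TAP1 windows 1, at the far end.

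HCT116 cells carried transcripts of every member in both libraries, with the light chain gene on top and the transactivator gene at the bottom. All 9 reached the threshold for expression, 1 FPKM in PJ and in PF, against 57.3% of 19038 protein-coding symbols and 27.9% of all 51609 symbols with a value in each library. B2M averaged 523 ± 247 FPKM (SD, n = 2), HLA-C 204 ± 86.9, HLA-B 128 ± 59.1 and HLA-E 43.8 ± 13.6. TAP2 averaged 23.7 ± 6.37 FPKM, TAPBP 19.2 ± 2.91, HLA-F 12.05 ± 4.44, TAP1 11.4 ± 1.47 and NLRC5 3.53 ± 0.578 (SD, n = 2 each). In this order of mean level the ranges over both libraries overlapped between HLA-C and HLA-B, between TAP2 and TAPBP, and between HLA-F and TAP1. By the listed FPKM the other neighbours were apart. Within each library HLA-C nevertheless stood above HLA-B with separate bounds. The listed B2M values lie outside their own bounds. From the midpoints of the bounds B2M was at 227 in PJ and 438 in PF and HLA-C at 144 and 269, so those ranges overlapped. By the listed FPKM, B2M was higher than 97.5% of the 14404 expressed symbols in PJ and 98.9% in PF. NLRC5 was higher than 14.8% in PJ and 22.8% in PF.

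**Figure D2:**
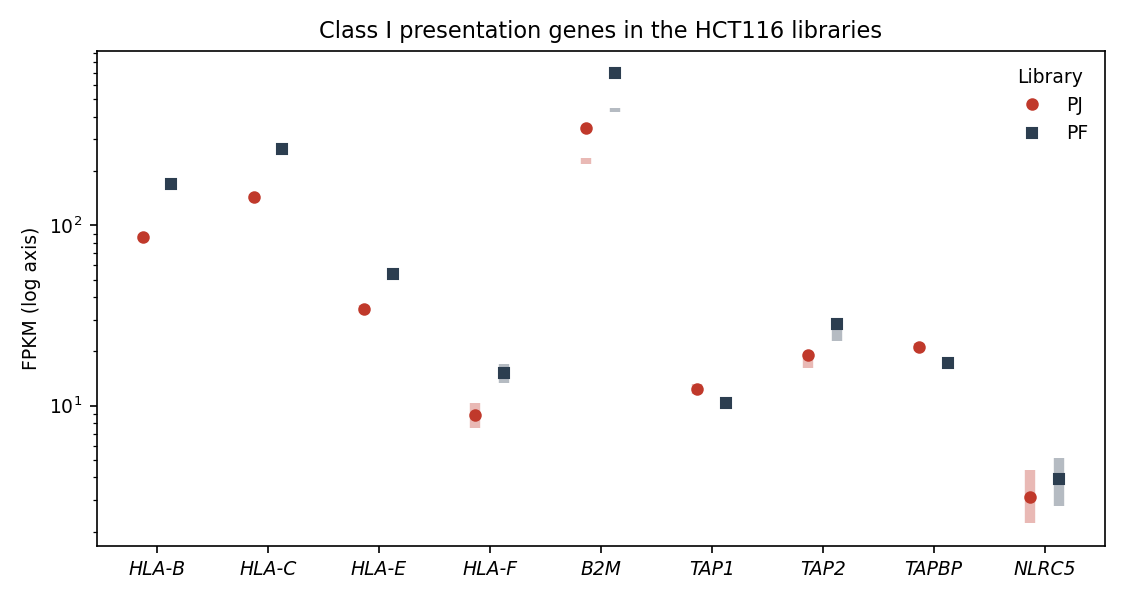
FPKM of each member (log axis) in library PJ (red circles) and library PF (dark squares); pale bars are the deposited 95% bounds, which for TAP2 are those of its larger row while the symbol is the sum of its rows. The PJ symbol lies below the PF symbol for the 4 heavy chain genes, B2M, TAP2 and NLRC5, and above it for TAP1 and TAPBP.

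The classical heavy chain genes, whose products present peptides to CD8+ T cells, were lower in PJ. HLA-B (ENSG00000234745.4; hg19 chromosome 6, 31321649 to 31324965) was at 85.8 FPKM in PJ (bounds 82.5 to 89.2) and 169 in PF (164 to 175), so the PJ level was 50.6% of the PF level. HLA-C (ENSG00000204525.8; chromosome 6, 31236526 to 31239907), also a ligand of killer cell receptors, was at 143 FPKM in PJ (140 to 148) and 266 in PF (263 to 275), or 53.8%. Both genes had bounds far apart between the libraries. On the scale of log2(FPKM + 1), PJ over PF, these differences were -0.97 for HLA-B and -0.89 for HLA-C.

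The nonclassical heavy chain genes went the same way by a smaller ratio. HLA-E (ENSG00000204592.5; chromosome 6, 30457244 to 30461982), which presents leader peptides of other class I chains to natural killer cells, was at 34.2 FPKM in PJ (32.8 to 36.0) and 53.4 in PF (51.6 to 55.9). HLA-F (ENSG00000204642.8; chromosome 6, 29690552 to 29706305), a nonclassical class I gene, was at 8.91 FPKM in PJ (7.51 to 10.3) and 15.2 in PF (13.4 to 17.1). Their log2 ratios were -0.63 for HLA-E and -0.71 for HLA-F, and the bounds of PJ and PF did not overlap for either gene. Summed over the 4 heavy chain genes, the level was 272 FPKM in PJ and 504 in PF.

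B2M (ENSG00000166710.12; chromosome 15, 45003675 to 45011075), the light chain gene, lies on another chromosome than the heavy chain genes and was lower in PJ like them. It was listed at 348 FPKM in PJ and 697 in PF, a log2 ratio of -1.002 and the only member at least 2-fold apart. Both estimates lie above their own bounds, which were 219 to 235 FPKM in PJ and 428 to 448 in PF. From the midpoints of those bounds, 227 in PJ and 438 in PF, the log2 ratio is -0.94, under 2-fold and nearer to 0 than that of HLA-B (-0.97 from its midpoints), so the B2M value is uncertain as a level and sits at the threshold as a difference.

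The proportions of the chains within a library are a comparison that no scaling of the libraries can alter. HLA-C was 1.67 times HLA-B in PJ and 1.57 times in PF. HLA-B was 2.51 times HLA-E in PJ and 3.17 times in PF, and HLA-E 3.84 and 3.52 times HLA-F. By the listed FPKM, B2M was 1.28 times the sum of the 4 heavy chain genes in PJ and 1.38 times in PF. From the midpoints of the bounds it was below that sum, at 0.832 times in PJ and 0.863 times in PF, so whether B2M lies above or below the heavy chain sum depends on the estimate used. HLA-C made up 52.6% of that sum in PJ and 52.8% in PF, HLA-B 31.6% and 33.6%, HLA-E 12.6% and 10.6%, and HLA-F 3.28% and 3.01%. TAP1 and TAPBP did not keep their proportion to the heavy chain sum. That sum was 21.9 times TAP1 in PJ and 48.8 times in PF, and 12.8 times TAPBP in PJ and 29.4 times in PF. TAP2 changed less against it, with a heavy chain sum of 14.2 times TAP2 in PJ and 17.9 times in PF.

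The genes of the peptide transporter differed from each other. TAP1 (ENSG00000168394.9; chromosome 6, 32812986 to 32821755) was at 12.4 FPKM in PJ (11.6 to 13.2) and 10.3 in PF (9.61 to 11.1), a log2 ratio of 0.24. TAP2, which encodes the other subunit, was at 19.2 FPKM in PJ and 28.2 in PF over its 2 rows, a log2 ratio of -0.53. Its larger row (ENSG00000204267.9; chromosome 6, 32789610 to 32806557) was at 17.3 FPKM in PJ (16.3 to 18.3) and 25.05 in PF (22.7 to 27.4). The smaller row (ENSG00000250264.1; 32781544 to 32806599) overlaps it and was at 1.92 FPKM in PJ and 3.17 in PF. TAP2 was thus 1.55 times TAP1 in PJ and 2.73 times in PF, or 1.39 and 2.43 times by the larger row.

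TAPBP (ENSG00000231925.7; chromosome 6, 33267471 to 33282164), the tapasin gene, was at 21.2 FPKM in PJ (20.2 to 22.3) and 17.1 in PF (16.1 to 18.2), a log2 ratio of 0.29. NLRC5 (ENSG00000140853.11; chromosome 16, 57023397 to 57117443) was at 3.12 FPKM in PJ (2.23 to 4.42) and 3.94 in PF (2.78 to 5.13), a log2 ratio of -0.26, and its bounds overlapped between the libraries. The signs of TAP1 and TAPBP depend on the scaling: with the libraries brought to the same upper quartile their log2 ratios were -0.05 and -0.01.

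By the sign of the log2 ratio, 7 of 9 members were lower in PJ and 2 higher. Of the 15736 symbols whose mean reached 1 FPKM, 5377 were lower and 10359 higher. On the log2(FPKM + 1) scale, 1 of 9 members (B2M) was at least 2-fold lower in PJ and 0 of 9 at least 2-fold higher. The shares of the 15736 symbols were 5.22% and 10.4%, from which a count of 1 among 9 cannot be told apart. B2M sits at the threshold, and the lower count was 0 with a pseudocount of 5 and 0 from the midpoints of the bounds. The median log2 ratio was -0.63 over the members and 0.22 over the 15736 symbols. The whole distribution was shifted towards PJ by a median ratio of 1.19, or 0.25 on the log2 scale, over the expressed symbols. With that ratio divided out, B2M (-1.25), HLA-B (-1.22) and HLA-C (-1.14) were at least 2-fold lower in PJ and 0 of 9 members 2-fold higher, against 7.37% and 6.48% of all symbols. HLA-F (-0.93), HLA-E (-0.87), TAP2 (-0.77) and NLRC5 (-0.45) were also lower then, while TAP1 (0.02) and TAPBP (0.06) lay near the median of all genes. The bounds of PJ lay below those of PF for 6 of 9 members (18.2% of all symbols) and above them for TAP1 and TAPBP, 2 of 9 (44.5%).

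**Figure D3:**
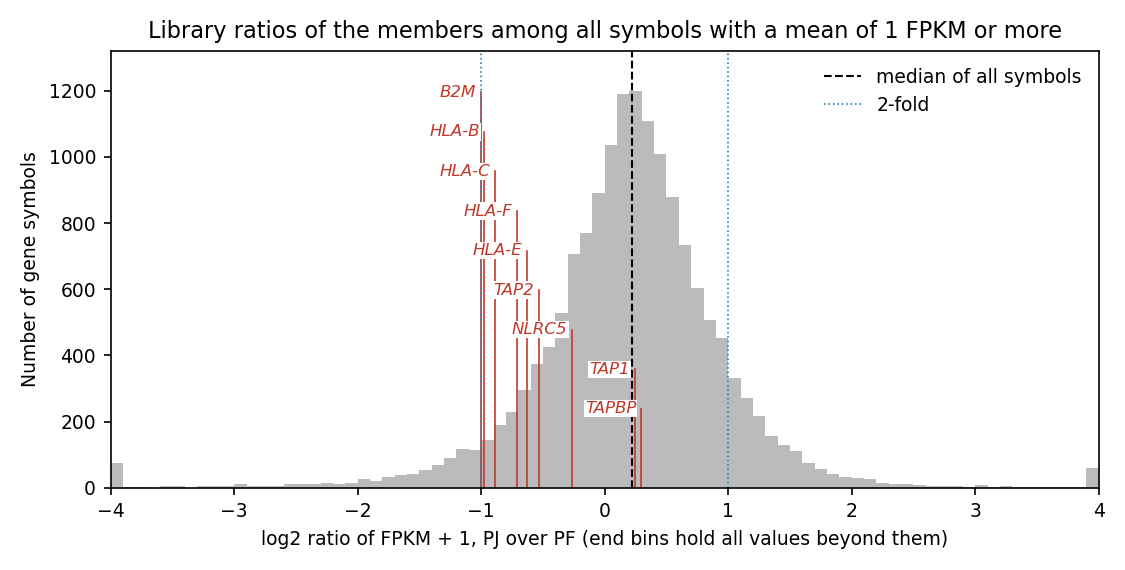
Histogram of log2 ratios of FPKM + 1, PJ over PF, for 15736 symbols whose mean reached 1 FPKM, with the members drawn as red lines of arbitrary height. B2M, HLA-B and HLA-C lie nearest to the lower 2-fold line, and TAP1 and TAPBP next to the median of 0.22 (dashed).

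**Figure D4:**
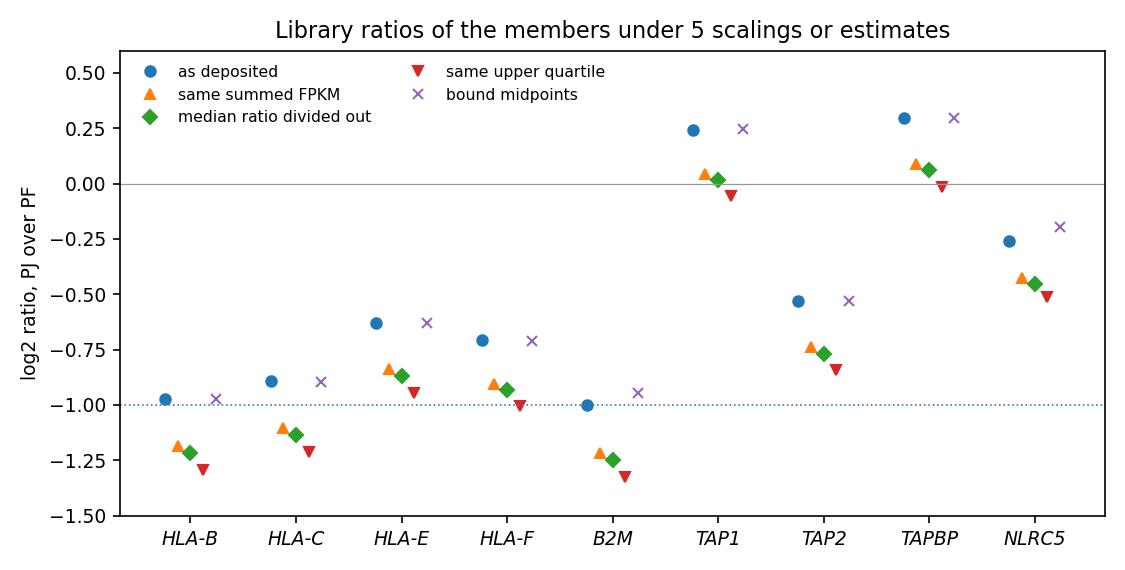
Log2 ratio of each member, PJ over PF, as deposited, under 3 other scalings of the libraries and from the midpoints of the deposited bounds. HLA-B, HLA-C, HLA-E, HLA-F, B2M, TAP2 and NLRC5 lie below 0 in every one, and TAP1 and TAPBP cross 0 at the same upper quartile.

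Markers of the cell type were looked at beside these differences. For comparison with the counts of expressed genes in this and the following lists, 57.3% of protein-coding symbols were expressed in both libraries. Of 11 immune cell markers, whose cells carry much class I RNA, 0 reached 1 FPKM in both libraries, and their summed level was 3.23 FPKM in PJ and 1.58 in PF. The pan-leukocyte gene PTPRC was at 0.000256 FPKM in PJ and 0.0734 in PF, and NKG7 of cytotoxic cells was listed at 0 in both. The macrophage receptor gene CSF1R was at 0.738 FPKM in PJ and 0.519 in PF, and CD3D of the T cell receptor complex at 0.467 and 0.336. Of 8 epithelial markers 7 were expressed in both libraries. Of those 7, 3 were at least 2-fold lower in PJ (KRT8, CLDN4 and CDH1), against 5.22% of all symbols, and 0 were 2-fold higher (10.4%). KRT8 (keratin 8) was at 280 FPKM in PJ and 760 in PF, KRT18 at 147 and 216, CLDN4 (claudin 4) at 11.3 and 33.3, and CDH1 (E-cadherin) at 1.80 and 21.9. KRT19 stood at 325 FPKM in PJ and 306 in PF, and VIL1 (villin) at 0.314 and 0.159. The summed level of the 8 epithelial markers was 913 FPKM in PJ and 1556 in PF; its part in the class I difference was not tested. In bulk RNA, fewer cells with a transcript and less of it per cell cannot be told apart.

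Chaperones that fold class I chains were abundant in both libraries. CALR (calreticulin, of the peptide loading complex) was at 590 FPKM in PJ and 594 in PF, PDIA3 (the disulfide isomerase ERp57) at 198 and 211, and HSPA5 (BiP) at 224 and 189. TAPBPL, a tapasin relative, was at 0.476 FPKM in PJ and 0.394 in PF. Of the 7 genes of the list 5 were expressed in both libraries and 0 of them were 2-fold apart, with a median log2 ratio of -0.01. The peptide trimming genes of the list, named with their values known, were lower in PJ with bounds apart: ERAP1 was at 1.82 FPKM in PJ and 3.15 in PF, and ERAP2 at 0.266 and 1.53.

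The interferon-inducible catalytic subunits of the immunoproteasome, which change the peptides on offer, were scarce beside their constitutive counterparts in both libraries. PSMB8 was at 0.324 FPKM in PJ and 0.735 in PF, and its counterpart PSMB5 at 212 and 166. PSMB9, whose deposited span contains TAP1, was at 2.79 FPKM in PJ and 4.68 in PF, against 266 and 237 for PSMB6, which is 95.3 times PSMB9 in PJ and 50.7 times in PF. PSMB10 was the exception, at 65.6 FPKM in PJ and 39.9 in PF, with its counterpart PSMB7 at 315 and 225, or 4.80 times and 5.65 times as much. The activator genes PSME1 and PSME2 were at 81.4 and 35.7 FPKM in PJ and 91.2 and 35.7 in PF, and PSME3, of the nuclear activator, at 166 in PJ and 126 in PF. Of the 5 immunoproteasome genes, 4 were expressed in both libraries and 0 of them were 2-fold apart, with a median log2 ratio of -0.08, against 0.37 for the 4 constitutive genes.

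All 11 listed factors of class I promoters were expressed, 0 of them 2-fold apart. Their median log2 ratio was 0.35, or 0.12 with the median ratio of all symbols divided out. RELA (an NF-kappa B subunit) was at 47.7 FPKM in PJ and 33.8 in PF, NFYC (a Y box factor subunit) at 44.6 and 31.9, RFXANK (a subunit of the RFX complex) at 34.5 and 31.0, and the lowest, IRF2, at 1.79 and 1.11. The 11 interferon receptor and signalling genes were also expressed in full, with a median log2 ratio of 0.34, or 0.11 with that ratio divided out. The receptor subunit genes IFNGR2 and IFNAR1 were at 43.6 and 20.2 FPKM in PJ and 16.3 and 7.38 in PF. These 2 of the 11 were at least 2-fold higher in PJ, against 10.4% of all symbols. IFNGR2 lay above its own bounds in both libraries, 37.6 to 41.4 in PJ and 13.7 to 16.04 in PF. The kinase gene TYK2 was at 30.2 FPKM in PJ and 48.7 in PF and the feedback inhibitor SOCS1 at 2.13 and 1.43.

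Of 15 interferon response genes 8 were expressed in both libraries, near the share of 57.3% among protein-coding symbols. Of these 8, 0 were 2-fold apart, with a median log2 ratio of -0.32. PJ bounds lay below PF bounds for 5 of the 8 (18.2% of all symbols) and above them for 1 (44.5%). Among listed genes with a mean below 1 FPKM, IFIT2 was at 0.128 FPKM in PJ and 0.995 in PF and IFIT3 at 0.363 and 1.24. Their bounds were apart, and those of the other such genes overlapped. The ubiquitin-like ISG15 was at 103 FPKM in PJ and 136 in PF, IFI6 at 10.0 and 19.9, and UBE2L6, the conjugating enzyme of ISG15, at 8.94 and 11.2, while the chemokine gene CXCL10 was listed at 0 in both. With the median ratio divided out, 1 of the 8 expressed genes, IFI6, was at least 2-fold lower in PJ, against 7.37% of all symbols. IFI6 lay above its own bounds in both libraries, as did TYK2 and PSME1.

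Genes of class I-like molecules had ratios on both sides of 0. PROCR, the protein C receptor gene, was at 21.4 FPKM in PJ and 32.2 in PF, MICB at 25.4 and 22.7, and MICA at 23.9 and 21.3; the last 2 encode ligands of the killer cell receptor NKG2D. ULBP2 and ULBP1, which encode further NKG2D ligands, were at 7.72 and 3.31 FPKM in PJ against 1.97 and 1.06 in PF. Both were at least 2-fold higher in PJ, on the scale that understates changes of low genes. They were 2 of the 10 genes counted in this list, against 10.4% of all symbols. With the median ratio divided out only ULBP2 of the list was still 2-fold higher, against 6.48% of all symbols. Counts this small cannot be told apart from those shares. CD1D, which presents lipids, was at 0.0111 FPKM in PJ and 0.0216 in PF. Of the 11 genes of the list 10 were expressed in both libraries, with a median log2 ratio of 0.16, which was -0.08 with the median ratio divided out.

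Class II presentation genes, found mainly on professional presenting cells, were low. Their highest value was 6.23 FPKM. Of 12 genes 6 were expressed in both libraries, near the share of 57.3% among protein-coding symbols. HLA-DMA, which edits class II peptides, was at 6.14 FPKM in PJ and 6.23 in PF, HLA-DRB1 at 4.91 and 2.77, and HLA-DQB1 at 2.08 and 3.16. HLA-DPB1 was at 3.51 FPKM in PJ and 0.807 in PF, 2-fold or more higher in PJ. Of the 7 listed genes averaging at least 1 FPKM it alone was so, against 10.4% of all symbols. A count of 1 among 7 cannot be told apart from that share. CIITA, the class II transactivator and a relative of NLRC5, was at 0.0336 FPKM in PJ and 0.0199 in PF.

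**Figure D5:**
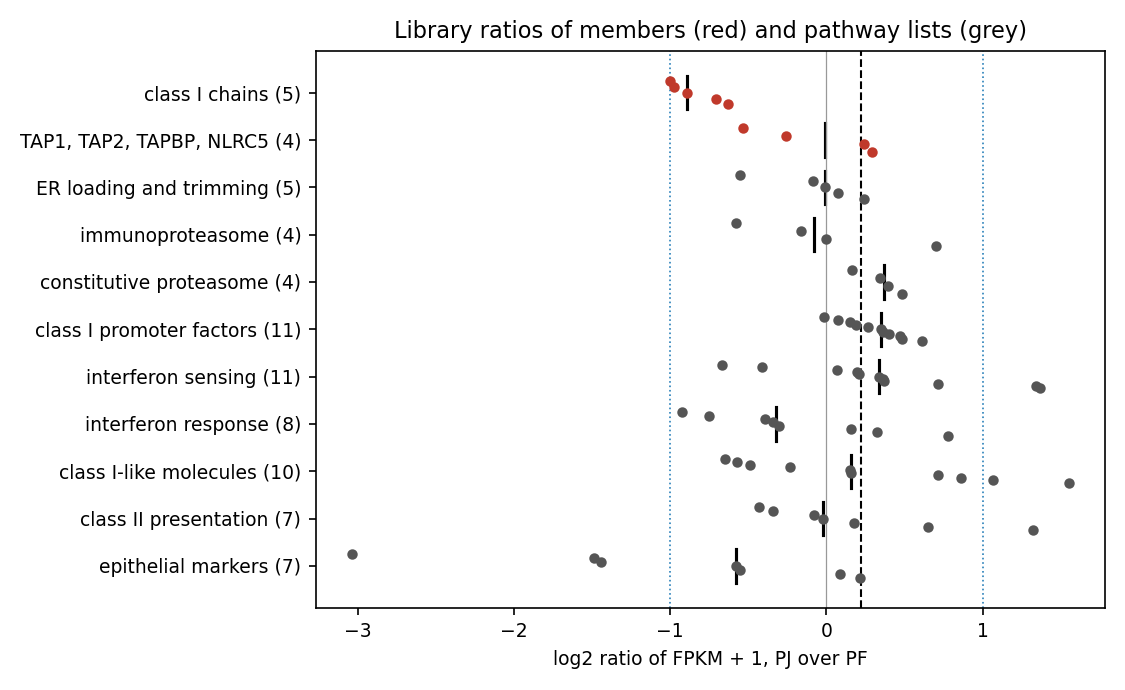
Log2 ratio of FPKM + 1, PJ over PF, for members (red) and genes of 9 lists (grey) whose mean reached 1 FPKM; the number of genes stands in brackets, short bars are medians, the dashed line is the median of all symbols and dotted lines mark 2-fold. The 5 class I chain genes lie between -1.002 and -0.63. Above 0 lie 10 of 11 promoter factors and 9 of 11 interferon sensing genes, against 10359 of all 15736 symbols.

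The named neighbours of HLA-B, HLA-C and HLA-E had log2 ratios from -0.11 (RANP1) to 0.34 (GNL1), unlike those members. Neighbours of TAPBP (0.29) had log2 ratios on both sides of its own. Within 50 kb of TAPBP, PFDN6 (a prefoldin subunit) was at 144 FPKM in PJ and 70.9 in PF, a log2 ratio of 1.007, and DAXX (a histone chaperone) at 49.8 and 27.1, a log2 ratio of 0.85. VPS52, WDR46, RPS18 and RGL2 beside them had log2 ratios of 0.40, 0.35, 0.30 and -0.01. MICA, 42.6 kb from HLA-B, had a log2 ratio of 0.16. Near HLA-E, GNL1 was at 58.7 FPKM in PJ and 46.0 in PF and the pseudogene RANP1 at 165 and 178. RPL3P2, a pseudogene 8.19 kb from HLA-C, was at 68.6 FPKM in PJ and 68.2 in PF, and CPNE2, next to NLRC5, at 26.5 and 26.2. The estimates of MICA, GNL1 and RPL3P2 lay outside their own bounds in both libraries. No gene other than the members with its lowest coordinate within 50 kb of HLA-F or B2M had a mean of 5 FPKM or more. Genes that begin further off and reach into that window were not searched.

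Class I genes resemble each other, which bears on how surely fragments were assigned. In GENCODE release 29 the main transcripts of HLA-B and HLA-C were 92.6% identical over 1532 aligned bases, those of HLA-B and HLA-E 82.4% and those of HLA-B and HLA-F 80.5%. Exact stretches were fewer: of the 50-base windows of the HLA-C transcript 5.99% also occur in a transcript of HLA-B, HLA-E, HLA-F, HLA-G or the pseudogene HLA-H, and of those of HLA-B, HLA-E and HLA-F 2.47%, 4.39% and 1.51% occur in another of these genes. These are reference alleles; how the alleles of HCT116 differ from them, and how that affected mapping, was not tested. HLA-F overlaps the antisense gene HLA-F-AS1, at 1.60 FPKM in PJ and 1.33 in PF, and the labels do not say whether strand was kept, so reads of the overlap cannot be told apart.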

How the data were processed

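RNA of 2 HCT116 libraries was taken with TRIzol and made into paired-end libraries with a TruSeq V2 kit, per the labels' protocols. TopHat2 2.0.8b, TopHat and Cufflinks with the hg19 genome are listed in the submitters' processing notes; of the annotation, the release is not given in the sources used here. Per gene, the authors deposited FPKM with lower and upper confidence bounds and a status, per the file headers; the level, 95%, is the one Cufflinks uses and is not stated in the headers.

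Rows of status FAIL (20 in PJ, 23 in PF) were taken as missing, and FPKM of rows sharing a symbol were summed; bounds are those of the row with the highest mean. Library ratios are log2 of FPKM plus a pseudocount of 1, PJ over PF, counted as 2-fold where a symbol's mean reached 1 FPKM. Gene types came from GENCODE release 29 by identifier (50211 of 56586 rows matched). Members and lists were chosen with earlier results of these data known. From each list the 3 highest means, the lowest and every gene 2-fold apart are named. PTPRC, PSMB9, ERAP1, ERAP2, IFIT2 and IFIT3 are named besides with their values known. Neighbours are genes whose lowest coordinate lies within 50 kb of a member's span and whose mean reached 5 FPKM. Some genes that the rule names are not reported here. The normal colon libraries that the design text mentions were not used here, and some other class I loci are not analysed here. Identities planned between proteins were computed between GENCODE transcripts instead. The code that counts 2-fold differences was checked for errors on simulated data with known changes. Alternatives were other thresholds, pseudocounts, scalings and row rules, each library alone and bound midpoints. Python 3.11.15, numpy 2.4.6, pandas 2.3.3 and Biopython 1.88 were used.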

Additional observations from a re-analysis of the deposited data

How the results depend on the processing

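All 9 members stayed at 1 FPKM or more under every scaling, row rule and treatment of FAIL tried, at a threshold of 0.5 FPKM and in each library alone (9 in each); at 5 FPKM the number was 8, without NLRC5. The number at least 2-fold lower in PJ, 1 as reported, was 3 with the median ratio divided out, 3 with the same summed FPKM over genes of 200 bp or more, and 4 with the same upper quartile; it was 0 with a pseudocount of 5 and 0 from the midpoints of the bounds, which were added once the values had been seen. The number 2-fold higher was 0 throughout. The members' median log2 ratio of -0.63 was -0.87, -0.84 and -0.94 under those 3 scalings. Each scaling multiplies PF and divides PJ by a constant, so before the pseudocount it moves all ratios by the same factor. HLA-B, HLA-C, HLA-E, HLA-F, B2M, TAP2 and NLRC5 stayed lower in PJ under every alternative, and TAP1 and TAPBP were higher in PJ except at the same upper quartile. No paired analysis was possible because the study has 1 group. With the fragment numbers unknown, precision rests on the deposited bounds.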

Other observations

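A class I pseudogene was listed among the higher class I loci. HLA-H was at 39.4 FPKM in PJ (bounds 37.0 to 41.8) and 52.1 in PF (49.3 to 55.0), close to HLA-E, with a log2 ratio of -0.39, and the pseudogene HLA-J was at 3.32 and 4.53 FPKM, a log2 ratio of -0.36. HLA-G, the class I gene of the placenta, was at 2.32 FPKM in PJ and 3.65 in PF, a log2 ratio of -0.49. All 3 were picked with their values known. All were lower in PJ, by smaller ratios than HLA-B and HLA-C; 4.51% of the 50-base windows of the HLA-C transcript occur in HLA-H, and how fragments were shared between these loci was not tested.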
